A study of Mus musculus with 4 samples.

Results

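Tet1, Tet2 and Tet3 are the 3 genes of the Tet dioxygenase family, chosen here by symbol from 22492 gene symbols in the expression files. For each gene the RNA level is given along with the DNA methylation of its locus, from 20 kb before to 20 kb after the deposited gene interval. Mouse E14Tg2a embryonic stem cells were profiled unmodified (WT) and as a Tet1, Tet2 and Tet3 triple knockout (TetTKO). The knockout was made by transient transfection of plasmids carrying guide RNAs against all 3 genes, puromycin selection and picking of clones, and the labels report that 5-hydroxymethylcytosine was no longer detectable in TetTKO DNA by mass spectrometry. The transfection was done in medium with inhibitors of MEK and GSK3, and both lines were afterwards adapted for at least 17 days to serum (15%) with LIF (1000 units/ml). How many clones entered the libraries is not given in the sources used here. Each genotype had 1 whole-genome bisulfite library and 1 RNA-seq library, 4 libraries in all, so no difference between the genotypes below has a replicate check.

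TET proteins are iron- and 2-oxoglutarate-dependent enzymes that oxidise 5-methylcytosine to 5-hydroxymethylcytosine and on to 5-formylcytosine and 5-carboxylcytosine, which are lost by dilution during replication or cut out by the glycosylase TDG and repaired. In mouse embryonic stem cells Tet1 and Tet2 are the expressed members, and Tet3 is known from the oocyte, the zygote and neurons. Tet1 and Tet3 can carry a CXXC zinc finger that binds CpG-rich DNA, whereas in Tet2 that domain became a separate neighbouring gene, Cxxc4. Bisulfite sequencing reads 5-methylcytosine and 5-hydroxymethylcytosine alike, so a methylation level here is the sum of both.

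The promoters of the 3 genes are shown because the methylation of each locus was read outward from them. The sequences are those of RefSeq on GRCm38.p6, 300 bases around each annotated start on the minus strand, with CpG dinucleotides in capitals. The Tet1 sequence is chr10:62887275-62887574, that of Tet2 is chr3:133544341-133544640 and that of Tet3 is chr6:83441629-83441928.
Tet1: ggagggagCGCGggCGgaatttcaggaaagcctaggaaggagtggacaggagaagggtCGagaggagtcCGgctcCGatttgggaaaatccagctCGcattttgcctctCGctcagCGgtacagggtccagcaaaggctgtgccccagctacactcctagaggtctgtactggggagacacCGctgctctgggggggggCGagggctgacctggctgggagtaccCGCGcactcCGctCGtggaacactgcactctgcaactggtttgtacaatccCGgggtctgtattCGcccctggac
Tet2: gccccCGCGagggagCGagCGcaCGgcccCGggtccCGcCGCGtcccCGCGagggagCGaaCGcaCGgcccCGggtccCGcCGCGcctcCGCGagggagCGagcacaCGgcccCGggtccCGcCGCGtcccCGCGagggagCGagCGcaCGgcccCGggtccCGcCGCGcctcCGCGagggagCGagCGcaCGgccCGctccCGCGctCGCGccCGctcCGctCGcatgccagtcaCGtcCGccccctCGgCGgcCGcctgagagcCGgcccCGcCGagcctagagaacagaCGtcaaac
Tet3: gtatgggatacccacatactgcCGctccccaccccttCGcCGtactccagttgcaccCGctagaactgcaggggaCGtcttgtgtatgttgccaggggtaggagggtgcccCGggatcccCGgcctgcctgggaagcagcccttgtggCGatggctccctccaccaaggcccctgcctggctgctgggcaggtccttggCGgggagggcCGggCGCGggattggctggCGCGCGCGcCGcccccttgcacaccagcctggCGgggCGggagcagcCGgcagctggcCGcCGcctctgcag
The Tet2 promoter held 57 CpGs and the Tet3 and Tet1 promoters 22 and 17, against a median of 7 over 32851 RefSeq promoters of the same length. Only 0.152% of those promoters held at least as many CpGs as that of Tet2, while 23.1% reached the number of Tet3 and 31.4% that of Tet1. The methylation files are on mm9, so the promoters were placed in them by the spacing of their CpGs, with no conversion of coordinates. Only places where every listed CpG fell on a CpG of the sequence were kept. Among these each sequence had a single best place, on the chromosome of its gene. It held 16 CpGs of Tet1, 34 of Tet2 and 11 of Tet3, and the next best of the places kept held 5, 9 and 7. Places with more matches but a listed CpG off the sequence were not considered. The start so placed was the last base of the deposited interval for Tet2 (chromosome 3, 133207354) and Tet3 (chromosome 6, 83391672). For Tet1 it lay at chromosome 10, 62350072, which is 7310 bp upstream of the deposited interval, so that interval begins inside the gene as RefSeq has it.

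Tet1 and Tet2 RNA was lower in the library labelled TetTKO, and Tet3 RNA was close to 0 in both, so that Tet3 gives no check of the label. The RNA level of Tet1, whose interval spans mm9 chromosome 10 from 62267318 to 62342762, fell from 15.1 FPKM in the WT library to 4.36 FPKM in that of TetTKO, so 29.0% was left. FPKM scales the fragments of a gene by its transcript length and by the size of the library. Tet2 (chromosome 3, 133126641 to 133207354) went from 14.9 to 4.13 FPKM, leaving 27.8%. The 2 genes therefore stood at nearly the same level in each library, with a Tet1 to Tet2 ratio of FPKM, a unit already scaled by transcript length, of 1.01 in WT and 1.06 in TetTKO. Tet3 (chromosome 6, 83312368 to 83391672) had 0.32 and 0.27 FPKM. In WT, Tet1 was 47.1 times as abundant per length as Tet3. The order Tet1, Tet2, Tet3 held in both libraries, but without replicates the small gap between Tet1 and Tet2 cannot be told from library error. In bulk RNA, fewer cells with Tet transcripts and less transcript per cell cannot be told apart. Small insertions or deletions at the guide sites are not visible in these values.

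**Figure D1:**
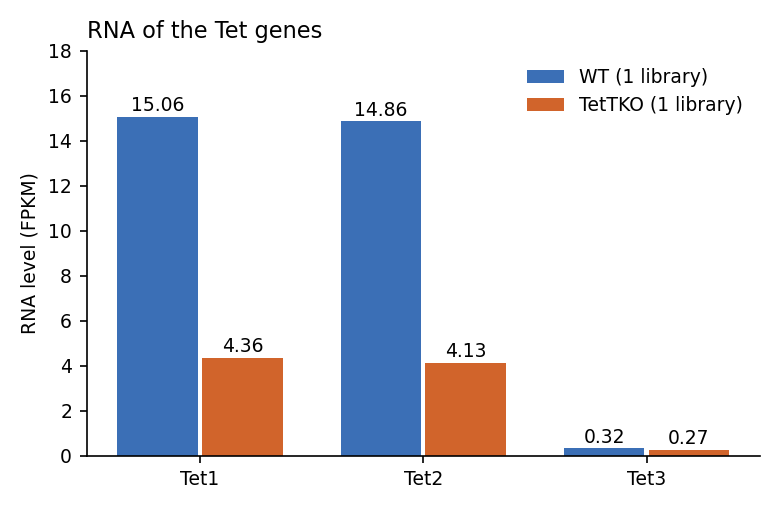
RNA level of the 3 Tet genes in FPKM (linear axis from 0), 1 WT library in blue and 1 TetTKO library in orange, so the bars have no error. Tet1 and Tet2 bars are nearly equal within each library, at 15.06 and 14.86 in WT and 4.36 and 4.13 in TetTKO, and Tet3 is at 0.32 and 0.27.

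The drop in Tet1 and Tet2 was among the largest in the data. On the log2 scale, after adding 1 FPKM to both values, the difference was -1.58 for Tet1 and -1.63 for Tet2. Among the 10984 genes that reached 1 FPKM in one library or both, these were the 11th and the 10th lowest values. Of those genes, 0.847% were at least 2-fold lower in TetTKO and 1.77% at least 2-fold higher on this scale of FPKM + 1. Tet3 did not reach 1 FPKM and was not counted, and its difference was -0.06. In WT, 4155 symbols had a higher FPKM than Tet1, whereas in TetTKO 7470 did. Over the 2 RNA libraries Tet1 and Tet2 were each other's nearest gene. Their distance in log2(FPKM + 1) was 0.066, and 0 other genes lay closer to Tet1. The next nearest to Tet1 were LOC545261 at 0.26 (12.8 and 4.91 FPKM), Mia1 at 0.27 and Krt42 at 0.30. The next nearest to Tet2 were LOC545261 at 0.29, Mia1 at 0.30 and Uty at 0.32. For Tet3, 1405 genes lay within 0.25, the nearest of them 1700012A16Rik, Aldoart1 and Loxl3 at 0.011, so its low level singled out no partner.

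Among the 3 nearest genes on each side of each Tet gene, those that reached 1 FPKM stayed within 2-fold. On the 3′ side of Tet1, Ccar1, a coactivator of cell cycle and apoptosis genes whose interval ends 12202 bp away, stood at 21.9 FPKM in WT and 22.3 FPKM in TetTKO, and the RNA helicase gene Ddx50 at 39.6 and 32.5 FPKM. On its 5′ side the mitochondrial carrier gene Slc25a16, at 40619 bp, had 6.5 and 5.91 FPKM, and the helicase and nuclease gene Dna2 had 16.5 and 17.5 FPKM. The low Tet1 value was therefore not shared by these expressed genes. Stox1 (0.09 and 0.37 FPKM) beside Tet1, Arhgef38 (0.15 and 0.03) and Tacr3 (0.04 and 0.41) beside Tet2, and Actg2 (0.09 and 0.49) beside Tet3 differed by more than 2-fold in plain FPKM, but under 1 FPKM in both libraries, where they were not counted. The low Tet2 value was likewise not shared by its expressed neighbours. Its nearest gene, the mitochondrial pyrophosphatase gene Ppa2 at 85608 bp, had 44.7 and 47.9 FPKM. Ints12, of the Integrator complex, had 9.4 and 11.3 FPKM. Cxxc4, the former CXXC part of the ancestral Tet2 gene, lay 692105 bp upstream and was near 0, at 0.01 and 0.02 FPKM. Around Tet3 the expressed neighbours were all lower in TetTKO. Bola3, an iron-sulfur cluster assembly factor 3982 bp away, went from 34.6 to 25.04 FPKM, and the mitochondrial deoxyguanosine kinase gene Dguok had 18.3 and 11.4 FPKM. Mob1a, of the Hippo pathway, had 46.1 and 29.8 FPKM, and the mitochondrial folate enzyme gene Mthfd2 had 93.2 and 52.9. All of chromosome 6 stood apart in this way. WT coverage per CpG there was 1.34 times that of the median autosome, against 0.982 in TetTKO, and over 310 expressed genes of chromosome 6 (5 FPKM or more in each RNA library) the median TetTKO to WT ratio was 0.691. The part of this in the Tet3 values was not tested.

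The promoter sequences printed above were read at 16 of 17 CpGs for Tet1, 34 of 57 for Tet2 and 11 of 22 for Tet3. These listed CpGs were unmethylated in both libraries but for single calls. Of the 16 listed CpGs of the Tet1 promoter, 15 had no methylated call in WT and 15 had none in TetTKO, with 1 of 111 calls methylated in WT and 1 of 209 in TetTKO. Exact 95% binomial intervals were 0.0228 to 4.92% and 0.0121 to 2.64%. The Tet2 promoter had 1 of 229 calls methylated in WT and 0 of 320 in TetTKO, where 0 calls allow a share of up to 0.938% by 3 counts of the total and up to 1.15% by the exact interval. The Tet3 promoter had 0 of 111 calls in WT, which allows up to 2.70% by 3 counts and 3.27% by the exact interval, and 1 of 81 in TetTKO. Any link between promoter methylation and the low Tet1 and Tet2 RNA in TetTKO was not tested. At the listed CpGs of these RefSeq starts, TetTKO had no methylated calls beyond single reads. The deposited 5′ end of Tet1 lies 7310 bp further into the gene. Its 1 kb window had 14.1% of 291 calls methylated in WT and 51.1% of 436 in TetTKO. The binomial intervals of the promoters cover counting error only.

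Methylation of the Tet1 gene body was higher in TetTKO. The difference was largest next to the 5′ end of the deposited interval, which begins 7310 bp inside the gene. Over 784 CpGs of the deposited interval, methylation averaged 47.9% in WT and 62.2% in TetTKO. The share of methylated calls was 47.8% of 8126 in WT, with an exact 95% interval from 46.8 to 48.9%. It was 62.2% of 9396 in TetTKO (61.2 to 63.2%), and the difference of these shares was 14.4 points (Newcombe 95% interval 12.9 to 15.9). The interval was then divided into 4 segments of equal length, numbered from the 5′ end. Segment 1 had 22.2% in WT and 48.8% in TetTKO over 216 CpGs. Segment 2 had 43.1% and 57.8% over 170 CpGs, and segment 3 had 56.0% and 69.0% over 203. Segment 4 had 72.0% and 73.6% over 195 CpGs. WT methylation thus climbed from the 5′ to the 3′ end of the interval, and TetTKO followed a flatter slope that met WT at the 3′ end. Pooled differences were 28.5 points (25.9 to 31.1) in segment 1 and 1.05 points in segment 4, where the interval of -1.57 to 3.66 spans 0. In segment 1, 66 CpGs were under 10% methylated in WT and 4 in TetTKO. Downstream of the gene the 20 kb had 37.4% in WT and 34.9% in TetTKO.

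**Figure D2:**
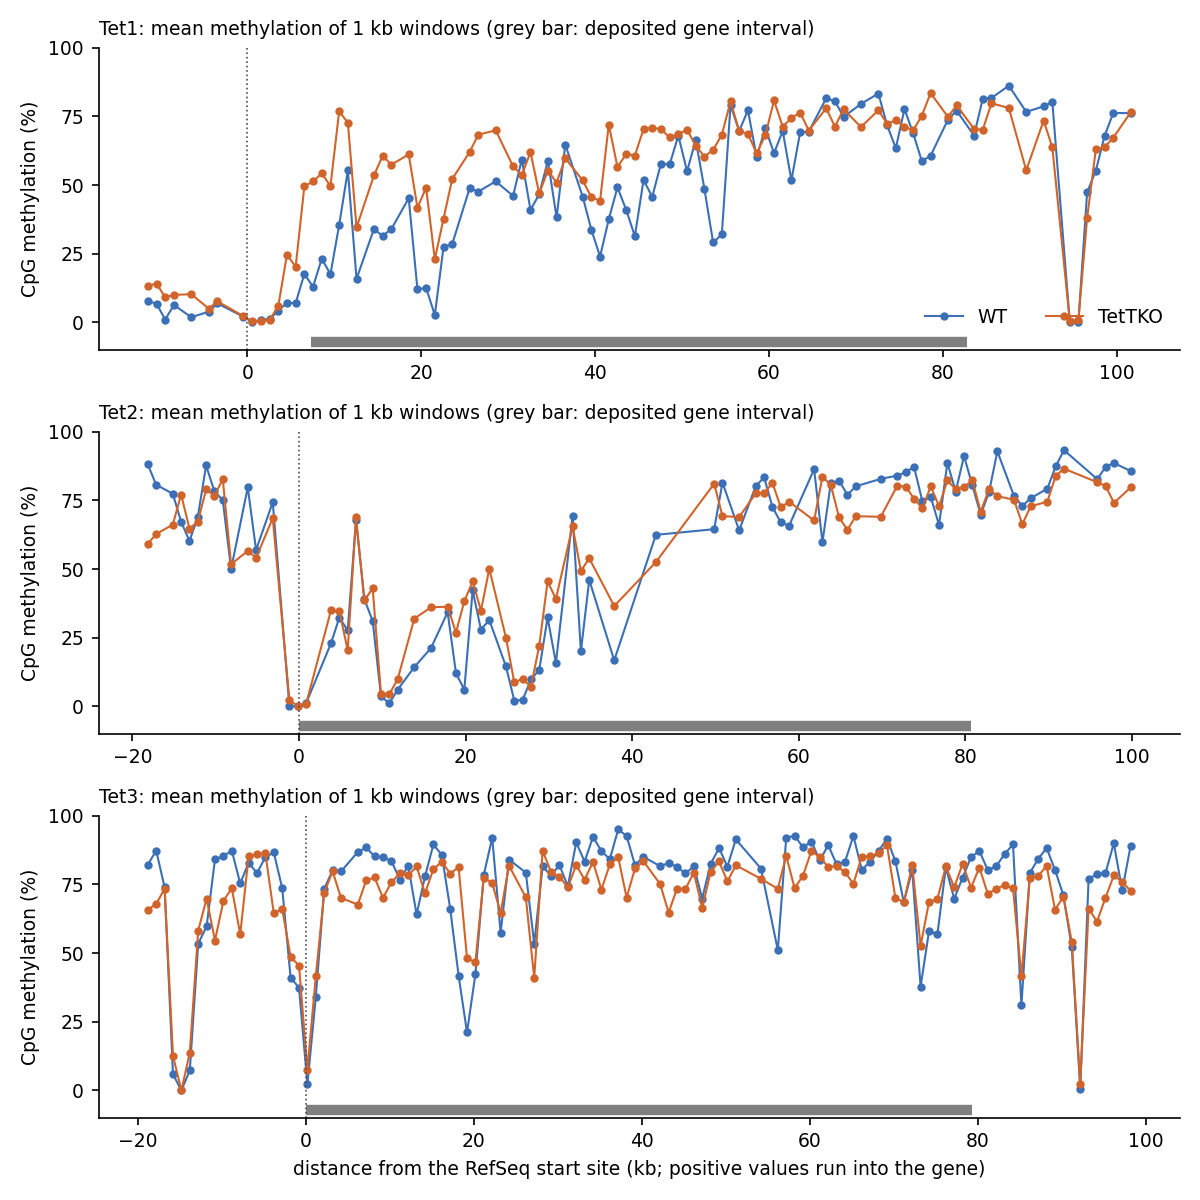
Mean CpG methylation in percent of 1 kb windows with at least 5 listed CpGs, against distance in kb from the RefSeq start (dotted line), for WT (blue) and TetTKO (orange), with the deposited gene interval as a grey bar and lines joining neighbouring windows. In Tet1 the orange line leaves the start together with the blue one and is above it in most windows of the gene (53 of 65 interval windows) but in 5 of 14 downstream. In Tet3 the orange line is above the blue one in 23 of 74 interval windows, and single windows differ by up to 39.5 points upward and 29.6 points downward.

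The unmethylated region around the Tet1 start reached less far into the gene in TetTKO. In the 5 kb after the start methylation averaged 0.949% in WT and 1.85% in TetTKO over 121 CpGs. In the next 5 kb it was 16.3% and 48.4% over 88 CpGs. The difference was thus larger in the second step, but the window centred 4.57 kb into the gene already had 7.18% in WT and 24.7% in TetTKO. From 10 to 5 kb upstream of the start the averages were 3.82% and 10.7% over 35 CpGs. The run of consecutive measured windows under 30% around the start extended 10.1 kb into the gene in WT and 6.07 kb in TetTKO. With a limit of 20% the run ended 4 kb sooner in TetTKO and with 40% it ended 5 kb sooner. The limits, that of 30% included, were chosen after the windows were seen. Upstream, the run reached the edge of the analysed locus in both libraries, and the 20 kb upstream of the deposited interval, which holds the RefSeq start, had 4.09% in WT and 8.75% in TetTKO.

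Of 94 Tet1 windows of 1 kb, 9 were at least 30 points higher in TetTKO and 0 were at least 30 points lower. Among 1223855 windows of the autosomes and X, 0.67% were that much higher and 0.638% that much lower. The largest gain was at chromosome 10, 62339000 to 62339999, where 34.9% of 63 WT calls (exact 95% interval 23.3 to 48.0%) and 76.8% of 82 TetTKO calls (66.2 to 85.4%) were methylated. The window at 62342000 to 62342999, which holds the deposited 5′ end and 31 CpGs, had 14.1% of 291 calls (10.3 to 18.6%) and 51.1% of 436 (46.3 to 55.9%). That at 62329000 to 62329999 had 11.4% of 176 calls (7.08 to 17.0%) and 48.9% of 139 (40.4 to 57.5%). In each of these windows the counting intervals of the libraries did not overlap, but the windows were picked for their large gains. The gap between the intervals is therefore no separate test of the gain. Calls at neighbouring CpGs can come from the same read, so these intervals are narrower than the counting error. The largest losses lay outside the gene on its 3′ side, with 21.3 points at 62260000, 16.5 at 62257000 and 11.3 at 62265000. Whether the windows fall in exons or introns was not determined.

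Tet2 methylation was somewhat higher in TetTKO in the 5′ part of its gene, but differed little over the whole locus. Of 83 locus windows 41 were higher, and the pooled locus difference was 0.525 points, with an interval of -0.896 to 1.95 that spans 0. In the 20 kb upstream the pooled difference was -7.20 points (-10.3 to -4.09). Over 580 CpGs of the interval methylation averaged 46.2% in WT and 49.4% in TetTKO, and the pooled difference was 4.06 points (2.29 to 5.83), but the mean difference of 3.23 points was 1.956 with CpGs of at least 10 reads. Segment 1 begins at the RefSeq start, unlike that of Tet1, and had 16.7% and 22.0%. Segment 2 had 26.8% and 37.8%. Segments 3 and 4 had lower means in TetTKO, with 72.7% and 69.9% in segment 3 and 79.2% and 76.3% in segment 4. The pooled difference of segment 3 was -1.47 points, and its interval of -5.32 to 2.41 spans 0. The 5′ segments were thus low in both libraries and somewhat higher in TetTKO, while the 3′ segments were high in both. In segment 1, 91 CpGs were under 10% in WT against 62 in TetTKO, and in segment 2, 54 against 24. The run of windows under 30% around the start reached 4.35 kb into Tet2 in WT and 1.35 kb in TetTKO, but with limits of 20% or 40% it was equally long in both. Low methylation within Tet2 extended in patches to about 40 kb from the start in WT, for example 6.30% over 41 CpGs from 10 to 15 kb and 14.9% over 54 CpGs from 25 to 30 kb, which had 14.3% and 20.2% in TetTKO. The only Tet2 window at least 30 points higher, of 83 (1.20%, against 0.67% of all windows), was at chromosome 3, 133187000 to 133187999, where 6.17% of 81 WT calls (2.03 to 13.8%) and 37.9% of 66 TetTKO calls (26.2 to 50.7%) were methylated. The windows at 133173000 and at 133144000 were 29.3 and 23.9 points higher, and 0 of 83 were at least 30 points lower. The largest loss was 28.9 points at 133225000 to 133225999, upstream of the gene, on 31 WT calls, followed by 23.1 points at 133213000 and 18.7 at 133145000.

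The body of Tet3 was highly methylated in both libraries. Its interval had 75.5% in WT and 74.4% in TetTKO over 971 CpGs, and a pooled difference of -1.64 points (-2.81 to -0.476). By segment from the 5′ end, WT had 66.7, 80.8, 82.0 and 73.4% and TetTKO had 68.7, 75.6, 76.4 and 75.8%. In segment 1 the mean over CpGs was 2.00 points higher in TetTKO, but the pooled difference was -0.061 (-2.79 to 2.66). Of 112 Tet3 windows 1 was at least 30 points higher, a share of 0.893% that is near the 0.67% of all windows. This window, at chromosome 6, 83373000 to 83373999, had 46.3% of 164 WT calls methylated (38.5 to 54.3%) against 80.2% of 116 TetTKO calls (71.7 to 87.0%). Its neighbour at 83372000 had 19.9% of 146 calls and 47.5% of 158. They are centred 18.2 and 19.2 kb into the gene, and the third gain, at 83335000, was 22.3 points. The largest loss was 29.6 points at 83402000 to 83402999, upstream of the gene, followed by 22.4 points at 83353000 and 22.2 at 83395000.

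**Figure D3:**
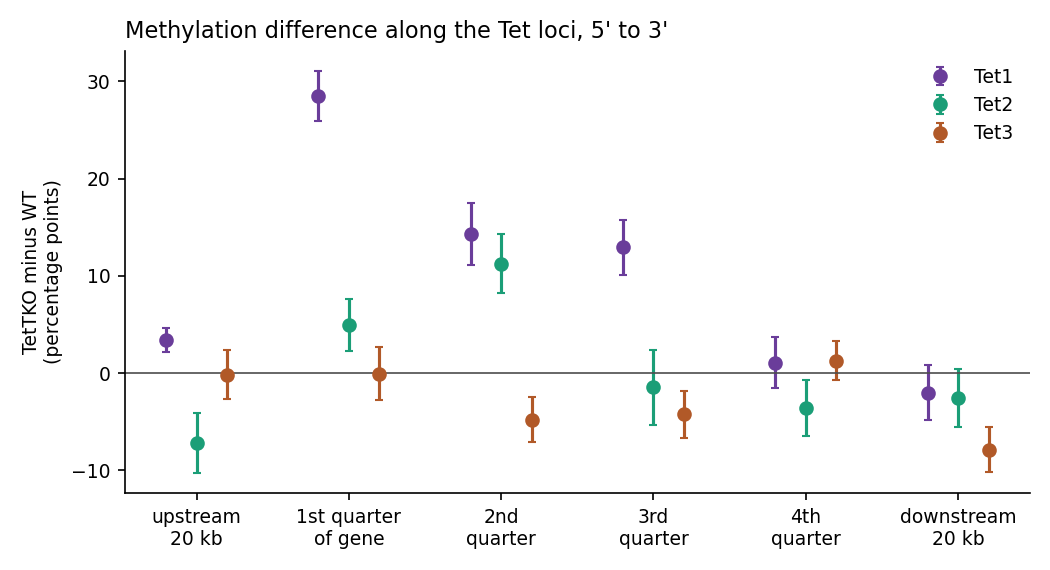
Pooled methylation difference, TetTKO minus WT, in percentage points along each Tet locus, for the 20 kb upstream, 4 equal segments of the deposited interval from 5′ to 3′, and the 20 kb downstream; bars are Newcombe 95% intervals of counting error within the 2 libraries. Tet1 stands at 28.5 points in the segment nearest the 5′ end of its interval and at 1.05 in the last. Tet2 peaks at 11.3 in the second, and Tet3 stays between -7.90 and 1.26. The Tet1 interval begins 7310 bp inside the gene and those of Tet2 and Tet3 at the RefSeq start, so segments lie at unlike distances.

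Set beside all genes, the Tet1 difference was in the upper tail and the other two were not. Over 19575 gene intervals with at least 20 listed CpGs, the median difference was -2.80 points, and 90% lay between -9.89 and 7.82. Tet1, at 14.3 points, was exceeded by 188 intervals. Tet2, at 3.23, was exceeded by 3027 and Tet3, at -1.15, by 7594. Of all intervals, 2.73% gained at least 10 points in TetTKO and 4.77% lost as much, and Tet1 was the only Tet gene among them. In WT, Tet1 and Tet2 had lower methylation than most genes, at percentiles 25.8 and 24.2 of the interval levels, while Tet3 was at 78.1. In TetTKO, Tet1 stood at percentile 52.9, Tet2 at 27.4 and Tet3 at 91.8.

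**Figure D4:**
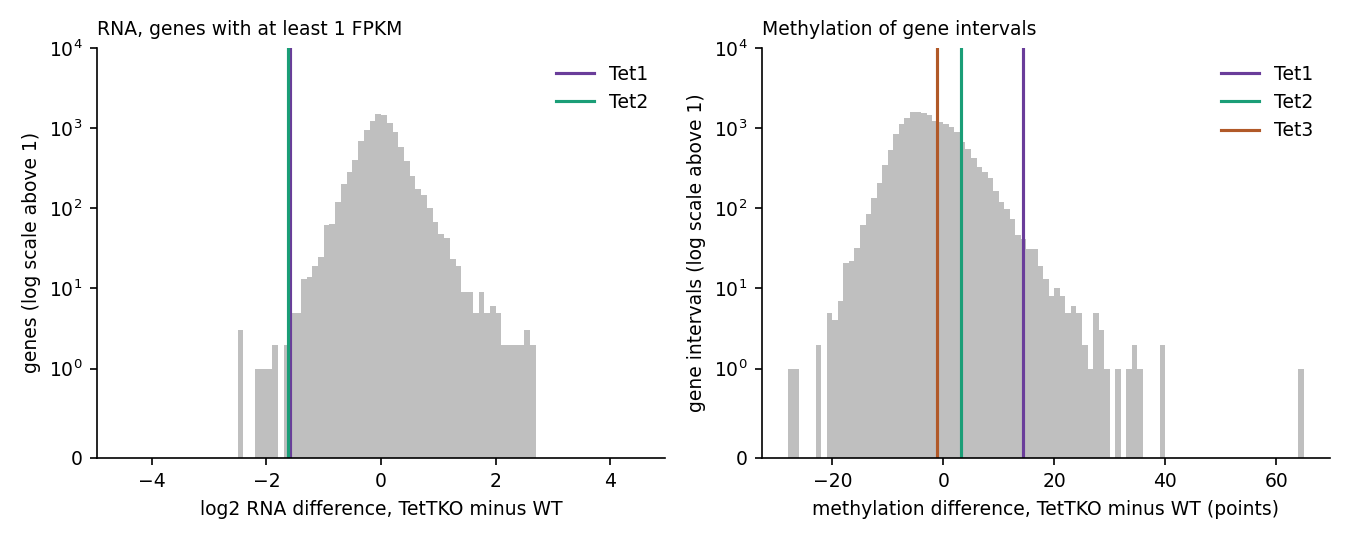
Distributions over all genes of the RNA difference (left, log2 scale of FPKM + 1, 10984 genes) and of the methylation difference of gene intervals (right, percentage points, 19575 intervals), TetTKO minus WT, with the Tet genes as vertical lines; both vertical axes are linear up to 1 and logarithmic above. Tet1 and Tet2 lie together in the far left tail of the RNA plot, at -1.58 and -1.63, but apart in the methylation plot, at 14.3 and 3.23 points.

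The higher methylation of Tet1 was then set against windows of like WT level, since low windows were higher in TetTKO across the genome. Windows were classed by their odd-numbered CpGs in WT and measured on the even-numbered ones. Under 10%, 17 Tet1 windows differed by 5.09 points and the genome by 5.38. In the class of 10 to 50%, the mean of 31 Tet1 windows was 33.8% in WT and 54.6% in TetTKO. They differed by 20.7 points, and 29 of them were higher. The 93707 windows of that class in the genome went from 40.4% to 49.5%, by 9.14 points, and 72.5% of them were higher. The WT means within the class were not equal, so this comparison is not exact. Tet2 differed by 7.43 points over 19 windows and Tet3 by 13.4 over 8 windows, on either side of the genome's value. In the class of 50 to 80% the genome differed by -4.45 points, from 74.8% to 70.3%, and Tet1 by 4.28 points over 37 windows, from 64.6% to 68.9%. Above 80%, the genome stood at -8.19 points, Tet1 at -5.74, Tet2 at -7.95 and Tet3 at -8.02. In both middle classes the difference was thus more positive in Tet1 than in the genome, from a lower WT level. The highly methylated windows of all 3 loci went down on average, as elsewhere. For Tet1 this rests on 9 windows, whose median difference was -1.25 points against -7.96 in the genome. Windows of 1 locus share their DNA and libraries and are not replicates.

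**Figure D5:**
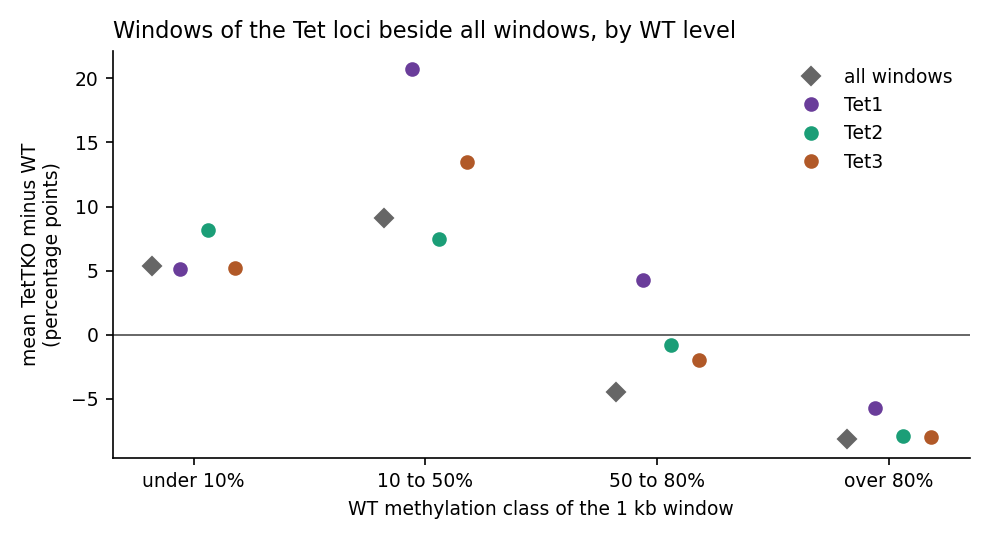
Mean methylation difference, TetTKO minus WT, in percentage points on even-numbered CpGs of 1 kb windows, by WT class set on odd-numbered CpGs, for all windows of the autosomes and X (grey diamonds) and for the Tet loci (circles, 5 to 61 windows each). Tet1 lies above the genome's value in the class of 10 to 50%, at 20.7 against 9.14 points, and in the class of 50 to 80%, at 4.28 against -4.45.

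No single CpG of the Tet loci passed a test adjusted over the genome. A two-sided Fisher exact test per CpG, adjusted by Benjamini-Hochberg over all 14323377 listed CpGs, compared the reads of these 2 libraries and not the genotypes. Of 3728 CpGs in the 3 loci it called 0 higher and 0 lower at an adjusted p under 0.05, against 86 higher (0.0006%) and 274 lower (0.00191%) in the genome. The smallest adjusted p in the loci was 0.31. Before adjustment, at p under 0.05, Tet1 had 101 CpGs higher and 9 lower of 1235. That is 8.18% higher, against 1.2% of all CpGs higher and 1.93% lower. Tet2 had 24 higher and 12 lower of 927, and Tet3 had 29 and 28 of 1566. The excess of higher CpGs in Tet1 rests on the same calls as its interval and window differences and adds no separate support.

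Mean coverage of the gene intervals followed that of their chromosomes. Over the Tet1 interval the TetTKO to WT ratio of coverage was 1.16, against a median of 1.16 over chromosome 10 intervals, and for Tet2 it was 1.18 against 1.16 on chromosome 3. For Tet3 it was 0.869 against 0.839 on chromosome 6. The longest stretch without a listed CpG was 959 bp in the Tet1 locus, 2072 bp in that of Tet2 and 892 bp in that of Tet3. Both files list CpGs with at least 5 reads in each library, so a deletion longer than these gaps and present on every copy in TetTKO would have left a longer gap. Smaller changes, or a deletion on 1 copy, would not show as such a gap. The TetTKO to WT ratio of coverage in single 1 kb windows ran from 0.566 to 1.73 in the Tet1 locus. It ran from 0.73 to 1.86 in that of Tet2 and from 0.510 to 1.39 in that of Tet3. Whether any low ratio reflects a deletion on 1 copy was not tested.

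The lists of TET-related genes held no call at 2-fold on the scale of FPKM + 1. With 0.847% of all genes called lower and 1.77% higher, counts of 0 in lists of this size are near the background and show nothing particular to them. Of 13 TET partners and regulators with at least 1 FPKM, 0 were 2-fold higher and 0 were 2-fold lower, with a median log2 difference of -0.12 against -0.01 over all 10984 genes. Lin28a, an RNA-binding protein reported to bring Tet1 to DNA, stood at 106 FPKM in WT and 120.0 FPKM in TetTKO, and the TET-binding pluripotency factor Nanog, on chromosome 6, had 116 and 71.0. Vprbp, a subunit of the ubiquitin ligase that modifies TET proteins, had 40.9 and 37.5 FPKM, and the paraspeckle protein gene Pspc1 had 31.3 and 36.5. Ogt, the GlcNAc transferase that binds all 3 TET proteins and was named after its values were seen, had 32.1 and 26.0 FPKM.

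Downstream of oxidation, 0 of 14 base excision and related genes passed 2-fold either way on that scale, with a median of -0.01. In plain FPKM the glycosylase gene Neil2, named after its values were seen, was more than 2-fold lower, at 3.35 FPKM in WT against 1.57. The repair genes Parp1 (215 FPKM in WT and 224 FPKM in TetTKO), Apex1 (60.5 and 58.6) and Xrcc1 (22.9 and 21.7) were the most abundant of them with the damage-induced Gadd45a of chromosome 6 (36.6 and 44.8). Tdg itself, named after its values were seen, was low in both, at 3.22 and 2.64 FPKM. For the cofactors of the enzymes, 0 of 17 genes of 2-oxoglutarate metabolism and vitamin C transport passed 2-fold on that scale. In plain FPKM the vitamin C transporter gene Slc23a1, named after its values were seen, was 2.64-fold higher, at 1.16 FPKM in WT against 3.06. The glutamate dehydrogenase gene Glud1 stood at 86.2 FPKM in WT and 129.5 FPKM in TetTKO, the aspartate aminotransferase gene Got2 had 76.7 and 85.4, the fumarase gene Fh1 had 78.9 and 69.0, and Idh3b, of the NAD-dependent isocitrate dehydrogenase, had 67.0 and 76.7. Likewise 0 of 15 other dioxygenases that use iron and 2-oxoglutarate passed 2-fold on that scale. The histone demethylase genes Kdm4c and Kdm3a went from 42.5 to 61.3 FPKM and from 59.7 to 43.2 FPKM, Kdm3a being on chromosome 6, the oxygen sensor gene Egln2 had 23.7 and 18.1, and Kdm2b had 17.6 and 21.5.

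Markers of the labelled cell type were abundant in both libraries. The 6 stem cell markers Pou5f1, Sox2, Nanog, Zfp42, Esrrb and Dppa5a ranged from 49.3 to 3211 FPKM in WT and from 26.4 to 3344 in TetTKO. By any amount, 5 of them were lower in TetTKO and 1 was higher, with a median log2 difference of -0.28. Over all 10984 genes with at least 1 FPKM, 5598 were lower and the median was -0.01. Of 6 fibroblast and feeder markers, Thy1 alone passed 1 FPKM, at 1.29 FPKM in WT, and the list summed to 1.58 FPKM in WT and 2.37 in TetTKO, with Dcn at 0 in WT and 0.04 in TetTKO. Thy1 had 0.96 FPKM in TetTKO, and the other members were low but higher in TetTKO, with Col3a1 at 0.08 and 0.74, Col1a2 at 0.12 and 0.4 and Col1a1 at 0.07 and 0.19 FPKM. The 3 primitive endoderm markers, all past 1 FPKM in TetTKO, summed to 1.12 FPKM in WT and 3.69 in TetTKO. Trophoblast markers summed to 0.34 and 1.0 FPKM, mesoderm markers to 0.69 and 1.45, and neuroectoderm markers to 2.81 and 1.58. The part of these other cells in the Tet values was not tested. The bisulfite libraries held 132794183 and 150132176 CpG calls, with median coverages of 8 in WT and 10 in TetTKO, and FPKM files give no read depth.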

How the data were processed

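The WGBS libraries were made, per the labels' protocols, from DNA with 0.5% unmethylated lambda DNA, sheared to about 350 bp and read as pairs of 110 bp, and the RNA libraries from rRNA-depleted total RNA read as directional single 50 bp reads. Trim Galore, Bismark 0.7.9, Bowtie, SAMtools, TopHat2 2.0.2, Cufflinks 2.0.2 and mm9 come from the submitters' processing notes, which give no settings here. The deposited methylation files give, per CpG, the methylated fraction, the count of methylated calls and the total count, for CpGs covered at least 5 times in both libraries. The deposited expression files give FPKM per gene with an interval and no strand. The annotation behind them is not given in the sources used here.

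Rows of 1 symbol were summed. RNA was compared as log2((TetTKO + 1)/(WT + 1)), which understates the change of low genes, and called by size at 2-fold on that scale, since 1 library per genotype allows no test. Methylation was the mean over CpGs, with exact binomial intervals of pooled calls and Newcombe intervals of differences, all at 95%. Windows were fixed 1 kb windows with at least 5 CpGs. Fisher tests used numba 0.67.0 and scipy 1.17.1 under Python 3.11.15. The Fisher test, the rule for calling windows higher or lower and the 2-fold RNA rule were tested on simulated data. The other steps were not tested in this way. Strand and promoter sequences came from RefSeq. Named genes were the Tet genes, the 3 nearest genes on each side, the 3 nearest in expression pattern, and the 4 most abundant of each list plus any past 2-fold; neighbours not printed had under 3 FPKM in both libraries. Named windows were the 3 largest gains and the 3 largest losses of each locus. The members, lists and tests were chosen with earlier results of these data known.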

Additional observations from a re-analysis of the deposited data

How the results depend on the processing

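No paired analysis was possible because each genotype had 1 library per assay, and for the same reason no library could be left out. The Tet1 and Tet2 RNA differences stayed past 2-fold lower under every pseudocount and scaling tried, from -1.77 to -1.10 and from -1.82 to -1.12. The Tet3 RNA difference changed sign, to 0.0755, when TetTKO values were scaled by the median ratio of chromosome 6, and Tet3 stays under 1 FPKM in any case. The Tet1 interval difference ran from 12.95 to 14.4 points and that of Tet3 from -2.14 to -1.11. The Tet2 interval difference was 1.956 points with CpGs of at least 10 reads in both libraries, and up to 4.06 otherwise; the cause was not tested. The count of windows at least 30 points higher, 11 over the 3 loci, was 29 with a threshold of 20 points and 17 when centred on the genome-wide median of -5.79 points, and from 8 to 13 in the other settings. The count of windows at least 30 points lower, 0, was 1 with 3 CpGs per window and 6 with 20 points. The share of all windows is given here for the main setting of 30 points only. The window counts at the other settings therefore cannot be set against the genome. Tested in pairs of adjacent CpGs, 2 pairs were called higher, 1 in the Tet1 and 1 in the Tet3 locus, and 0 lower. Over the genome 4231 of 7161683 pairs were called higher and 1037 lower, so these 2 calls show nothing particular to the Tet loci. The Tet2 run of windows under 30% was 3 kb longer in WT, and 0 kb longer with limits of 20% or 40%. Median coverages of 8 and 10 limit what single CpGs can show.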
